A study of Mus musculus with 6 samples.

Results

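The 77 genes described here encode proteins of the mitochondrial ribosome and were taken from the 35976 gene rows of the deposited table by symbol. They are the rows whose symbol starts with Mrpl or Mrps followed by a digit. By symbol, 48 belong to the large subunit (Mrpl) and 29 to the small subunit (Mrps), and no symbol in the table had to be left out as a pseudogene ending in -ps. The mitochondrial ribosome translates the few mRNAs that mitochondrial DNA encodes, all of which specify subunits of the oxidative phosphorylation complexes. Its ribosomal RNAs are mitochondrial transcripts, but its proteins are encoded in the nucleus, made in the cytosol and imported. The small subunit binds the mRNA and decodes it, and the large subunit joins the amino acids and guides the nascent chain into the inner membrane. In adipocytes, and in thermogenic ones above all, this ribosome supplies the mitochondrially encoded part of the respiratory chain.

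RNA was sequenced from primary mouse adipocytes, all of them Ppargc1a(fl/fl), so that loxP sites flank Ppargc1a in every group, controls included. Its product PGC-1alpha coactivates nuclear genes for mitochondrial proteins, and Rbm43 encodes an RNA-binding protein. The 6 libraries form 3 groups of 2, each group having received an adenovirus, then an siRNA, then full differentiation. The first group received Cre adenovirus and Rbm43 siRNA (Cre/Rbm43 below), the second GFP adenovirus and Rbm43 siRNA (GFP/Rbm43), and the third GFP adenovirus and control siRNA (GFP/control). Cells with Cre adenovirus and control siRNA were not analysed here, so an effect of Cre was measured with Rbm43 siRNA only. Duplicates are called biological, without word on whether they came from separate animals, so p-values measure the spread between these libraries. Between 15775398 and 21961724 reads fell in genes per library, and all 77 genes passed the low-value filter, which asked for 10 or more normalized counts in 2 or more libraries.

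Promoters of 3 members are shown because these genes mark the ends of the range described below. Mrpl50 and Mrps22 had the largest rise of their subunit with Rbm43 siRNA, and Mrpl24 was the only member that fell. Each sequence holds the 250 bases before the annotated transcription start, in the direction of the gene, from RefSeq on GRCm38.p6. The Mrpl50 promoter lies at chr4:49521084-49521333 on the minus strand, that of Mrps22 at chr9:98601680-98601929 on the minus strand and that of Mrpl24 at chr3:87919294-87919543 on the plus strand. Capitals mark the core of the element bound by ZNF143 (ACTACA, then 2 bases of any kind, then TCCC), an activator of many housekeeping genes, and, in Mrps22, also the ETS core CCGGAAG.
Mrpl50: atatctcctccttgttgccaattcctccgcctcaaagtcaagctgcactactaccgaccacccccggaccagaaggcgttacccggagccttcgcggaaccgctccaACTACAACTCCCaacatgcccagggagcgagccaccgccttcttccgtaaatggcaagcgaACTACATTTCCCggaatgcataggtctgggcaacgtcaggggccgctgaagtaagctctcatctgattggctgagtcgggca
Mrps22: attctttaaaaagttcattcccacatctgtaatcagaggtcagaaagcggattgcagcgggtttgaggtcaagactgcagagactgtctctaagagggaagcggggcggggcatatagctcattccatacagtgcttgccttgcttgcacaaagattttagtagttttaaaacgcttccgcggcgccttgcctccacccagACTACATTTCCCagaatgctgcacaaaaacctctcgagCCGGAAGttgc
Mrpl24: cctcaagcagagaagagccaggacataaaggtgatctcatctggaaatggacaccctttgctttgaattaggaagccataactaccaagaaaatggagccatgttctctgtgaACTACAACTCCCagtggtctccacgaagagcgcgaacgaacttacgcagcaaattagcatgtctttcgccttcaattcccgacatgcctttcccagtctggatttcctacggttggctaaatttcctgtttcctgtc
In Mrpl50 the ZNF143 core occurs 2 times, its first base 143 and 82 bases before the start. In Mrps22 it begins 49 bases before the start and is followed by the ETS core at 11 bases before it. In Mrpl24 it begins 137 bases before the start. The genes that rose and the gene that fell carry the same core, which was chosen after the windows had been read.

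A set of 5 motifs was searched on both strands of 300-base windows, 250 bases before and 50 after each start, for which 68 of the 77 members had an entry (74 windows). No window was available for Mrpl4, Mrpl13, Mrpl15, Mrpl19, Mrpl38, Mrpl54, Mrps28, Mrps34 and Mrps35. As background, PGC-1alpha is known to act with NRF1, with the ETS factor GABP and with the ERR nuclear receptors. The ETS core CCGGAAG was in 33.8% of member windows, against 16.3% of the 13550 windows of genes tested here and 8.86% of all 32851 promoters. YY1's core AAGATGG was in 17.6% of member windows, against 6.82% of windows of tested genes and 6.34% of all promoters. The NRF1 core GCATGCG was in 10.8% of member windows, 5.97% of windows of tested genes and 3.58% of all. The ERR half-site AAGGTCA was in 5.41% of member windows, 3.3% of windows of tested genes and 4.72% of all. The ZNF143 core, added after the windows had been read, was in 6.76% of member windows, 3.82% of windows of tested genes and 1.81% of all. The 5 member windows with this core are those of Mrpl34, Mrpl42 and the printed Mrpl50, Mrps22 and Mrpl24. Its member share therefore includes windows that led to its choice and cannot show an enrichment. By subunit, the ETS core was in 11 of 27 small-subunit windows and 14 of 47 large-subunit windows, and the NRF1 core in 1 small-subunit and 7 large-subunit windows. The motifs do not overlap one another in the windows printed, and these shares are descriptions of letters, not of binding.

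Rbm43 itself checked the siRNA labels. Its normalized count was 53.8 and 32.5 in Cre/Rbm43, 43.7 and 46.6 in GFP/Rbm43 and 185 and 224 in GFP/control libraries. Ppargc1a had 463 and 469 in Cre/Rbm43, 399 and 423 in GFP/Rbm43 and 163 and 202 in GFP/control libraries. It was 1.17 ± 0.10 higher on the log2 scale with Rbm43 siRNA (limma, adjusted p = 7.68e-08) and did not pass the test for Cre against GFP virus (0.18 ± 0.10, adjusted p = 0.330). Because the table counts the gene as a unit, reads also come from exons outside the floxed part, which the sources used here do not name, and the value does not check the excision. Directions below are therefore those of libraries labelled Cre. Markers of the labelled cell type were present: none of 12 adipocyte markers was at 0, and their sum was 236808 and 238583 in Cre/Rbm43, 281449 and 283857 in GFP/Rbm43 and 221190.4 and 201965 in GFP/control libraries. Sums of other marker lists were 6744 to 10602 for brown adipocytes (8 genes), 679518 to 755101 for preadipocytes and fibroblasts (12), 50829 to 72455 for mural cells (7), 1738 to 2069 for macrophages (12) and 253 to 354 for endothelium (7). Of 7 skeletal muscle markers, 3 were at 0 in every library.

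Levels of the members differed by several-fold. Mean normalized counts over the 6 libraries ran between 283 and 1586 per gene, with a median of 645 for the large and 578 for the small subunit. Per kilobase of annotated transcript, a level that allows for transcript length, the median was 505 for the large and 444 for the small subunit. Length was the median over a gene's principal protein-coding GENCODE transcripts, or over all its protein-coding ones where none was marked principal. Highest per kilobase in the large subunit were Mrpl30 (2397), Mrpl33 (2252) and Mrpl42 (1695), and in the small subunit Mrps21 (2118), Mrps6 (1191) and Mrps17 (1138). The lowest were Mrpl19 (90.5), Mrpl47 (93.1) and Mrpl17 (122), and Mrps25 (82.2), Mrps26 (105) and Mrps35 (134). These 6 genes have long annotated transcripts (3364 to 7300 bases), and their low values depend on that annotation. The 6 highest have short ones (446.5 to 868 bases), and their high values depend on it as well. Mrps6 shares same-strand exons with Slc5a3, so its reads may be split between both genes.

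Summed over the subunit, mRNA for the large subunit was 32723 and 32982 normalized counts in Cre/Rbm43, 40375 and 39705 in GFP/Rbm43 and 33243 and 30969.9 in GFP/control libraries. Group means were 32853 ± 183 in Cre/Rbm43, 40040.4 ± 474 in GFP/Rbm43 and 32106 ± 1607 in GFP/control (SD, n = 2 each). For the small subunit the sums were 17409 and 17552 in Cre/Rbm43, 21277 and 21105 in GFP/Rbm43 and 17859 and 16627 in GFP/control libraries. Both sums were highest in the 2 GFP/Rbm43 libraries, and the Cre/Rbm43 values lay within the GFP/control range. The 77 genes together took 0.261% and 0.262% of the library in Cre/Rbm43, 0.313% and 0.312% in GFP/Rbm43 and 0.265% and 0.248% in GFP/control. The ratio of large to small was 1.88 and 1.88 in Cre/Rbm43, 1.90 and 1.88 in GFP/Rbm43 and 1.86 and 1.86 in GFP/control libraries. Both subunits thus moved by nearly the same factor. In bulk RNA, fewer cells of a type and less RNA per cell cannot be told apart.

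**Figure D1:**
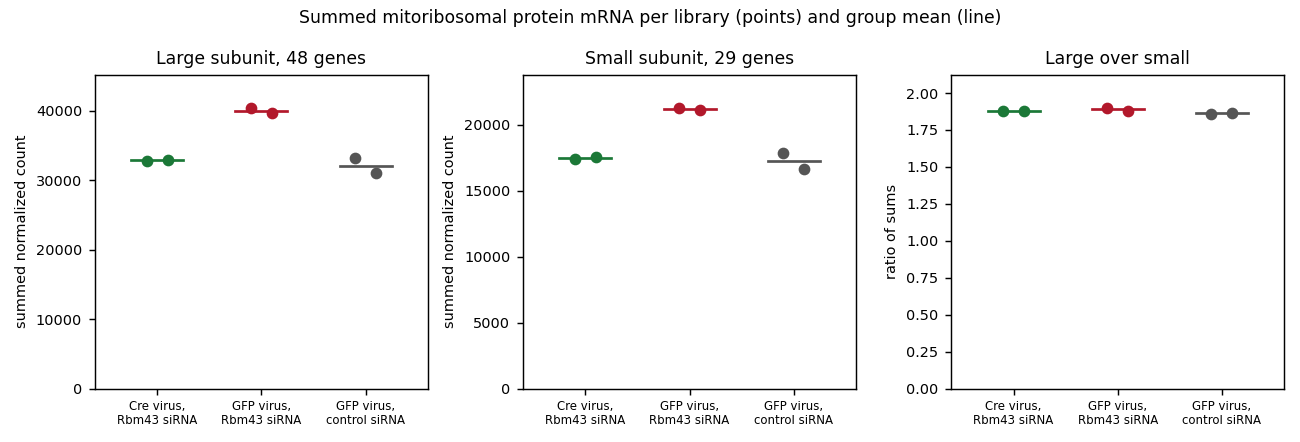
Summed normalized count of the 48 large-subunit genes, of the 29 small-subunit genes, and the ratio of both sums; points are libraries, lines the mean of 2 libraries. The GFP/Rbm43 libraries sit at 39705 and 40375 (large) and at 21105 and 21277 (small), above the other 4, while the ratio stays between 1.86 and 1.90.

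The first comparison asks how Rbm43 siRNA changed these genes in cells given GFP virus. Of the 77 members, 53 rose, 1 fell and 23 did not pass the test (limma, adjusted p under 0.05). The rise took 68.8% of the members, where 13.5% of the 14211 genes tested rose and 9.76% fell (23.2% in either direction; 23.0% by edgeR). The median log2 fold change of the members was 0.33 (interquartile range 0.18 to 0.42), against -0.01 over all genes tested. Both GFP/Rbm43 libraries lay above both GFP/control libraries for 68 of 77 members, where 29.2% of all genes did. These libraries also lay above all 4 others, the Cre/Rbm43 ones included, for 66 members (85.7%), against 16.3% of all genes. In the large subunit 33 of 48 rose (68.8%, median 0.35), and in the small subunit 20 of 29 rose (69.0%, median 0.27). With Mrps18a and Mrps30 counted in the large subunit, where structures place them, and Mrps36 in neither, 35 of 50 and 17 of 26 rose (medians 0.35 and 0.26). Marker lists moved with Rbm43 siRNA too. Of 12 adipocyte markers 7 rose and 3 fell, and of 8 brown adipocyte markers 6 rose, with sums of 10381 and 10602 in GFP/Rbm43 and 7307 and 6744 in GFP/control libraries. Of 11 preadipocyte and fibroblast markers tested 4 fell, of 12 macrophage markers 3 fell, of 7 mural markers 3 rose, and none of 6 endothelial markers passed. Their part in the members' rise was not tested.

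**Figure D2:**
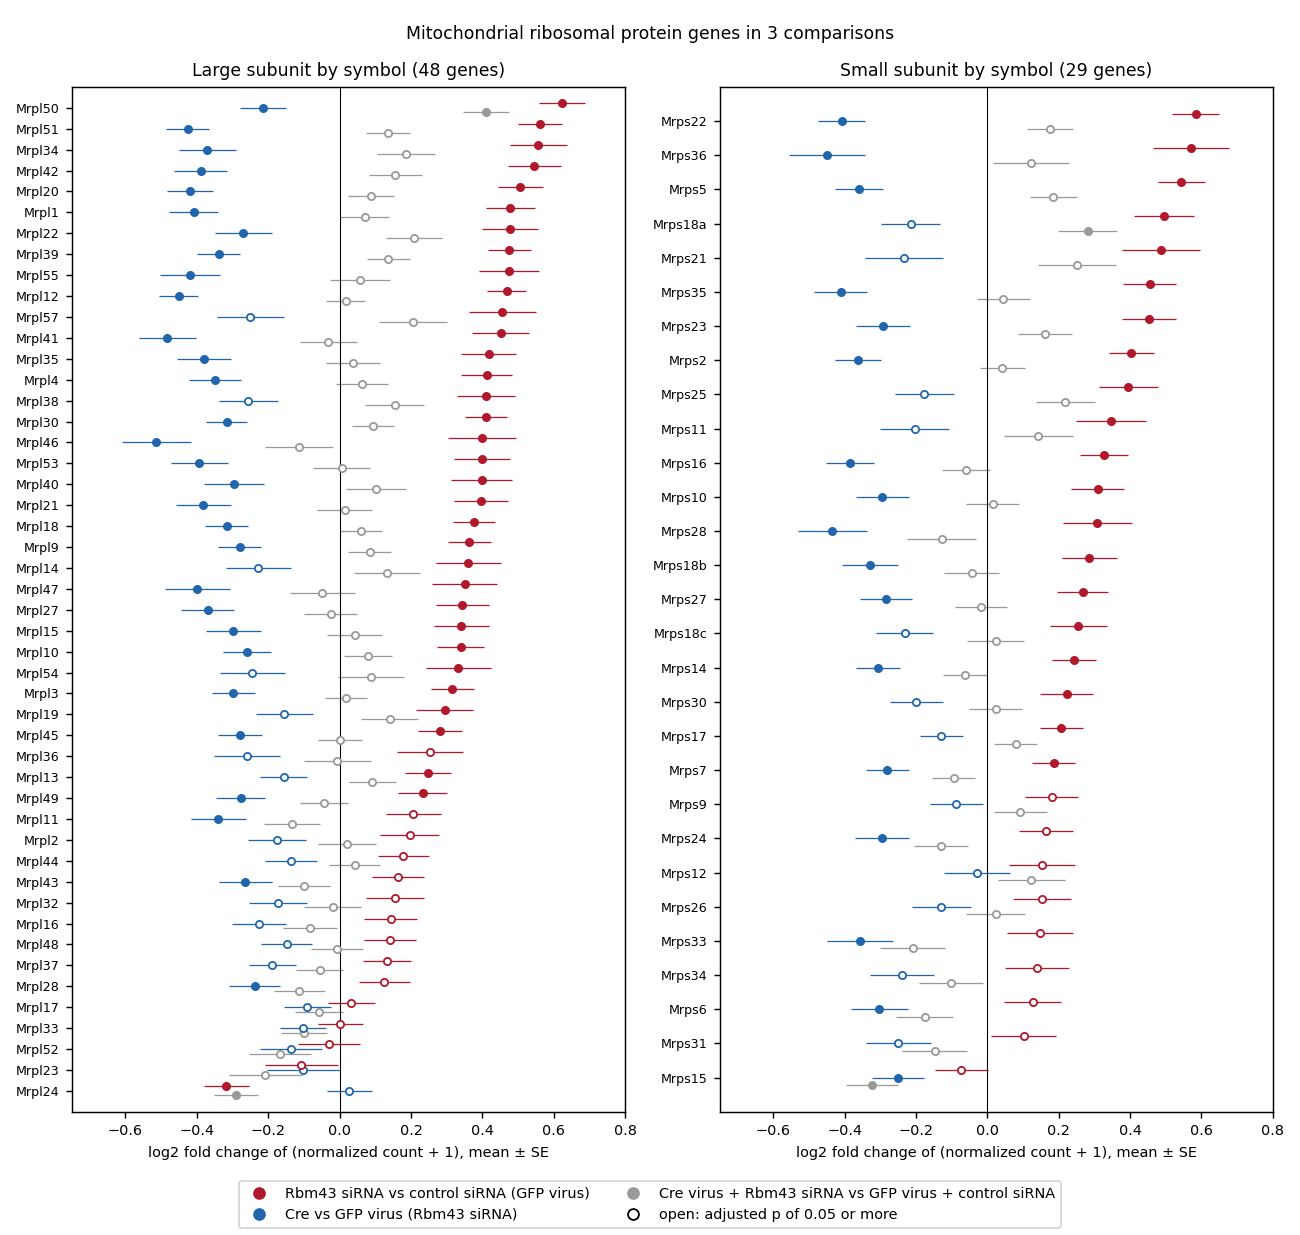
Log2 fold change of each member (point, with its SE as a bar) for the 3 comparisons, large subunit left and small subunit right, sorted by the change with Rbm43 siRNA; filled points passed the test. Rises with Rbm43 siRNA reach 0.62 (Mrpl50) and 0.58 (Mrps22), nearly all members lie below 0 for Cre against GFP virus, and those for Cre/Rbm43 against GFP/control scatter around 0.

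Mitochondria-specific proteins, taken here as those with systematic names in mL or mS, included the member with the largest rise. Mrpl50 (mL50; chr 4, 49512596 to 49521093) had 966 and 935 normalized counts in Cre/Rbm43, 1132 and 1074 in GFP/Rbm43 and 734 and 696 in GFP/control libraries. Its 3 groups did not overlap, and with Rbm43 siRNA it rose by 0.62 ± 0.06 on the log2 scale (SE; adjusted p = 7.05e-07), or 1.54-fold. Mrpl51 (mL51) had 1212 and 1299 in Cre/Rbm43, 1673 and 1699 in GFP/Rbm43 and 1191 and 1094 in GFP/control libraries. Its GFP/Rbm43 libraries were apart from the others and the rise was 0.56 ± 0.06 (adjusted p = 1.47e-06). Mrpl42 (mL42) had 1035 and 1066 in Cre/Rbm43, 1369 and 1383 in GFP/Rbm43 and 1038 and 856 in GFP/control libraries. Mrpl39 (mL39) had 1026 and 1048 in Cre/Rbm43, 1331 and 1293 in GFP/Rbm43 and 977 and 910.4 in GFP/control libraries. Both were highest in the GFP/Rbm43 libraries. Their rises were 0.55 ± 0.07 (adjusted p = 1.92e-05) and 0.48 ± 0.06 (adjusted p = 9.76e-06), and the lower GFP/control library of Mrpl42 was replicate 2. In all, 21 of 30 mitochondria-specific members rose and none fell (median 0.36), and 31 of 46 with a bacterial counterpart rose and 1 fell (median 0.31), with Mrps36 in neither class.

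Among members with a bacterial counterpart, the stalk protein Mrpl12 (bL12m) had 1263 and 1239 in Cre/Rbm43, 1723 and 1699 in GFP/Rbm43 and 1238 and 1234 in GFP/control libraries. The stalk recruits translation factors, and Mrpl12 is also known to bind the mitochondrial RNA polymerase. Its GFP/Rbm43 libraries stood apart and it rose by 0.47 ± 0.06 (adjusted p = 3.56e-06). Mrpl20 (bL20m, which in bacteria binds early during assembly) had 1113 and 1088 in Cre/Rbm43, 1463 and 1480.3 in GFP/Rbm43 and 1103 and 973 in GFP/control libraries and rose by 0.51 ± 0.06 (adjusted p = 8.80e-06). Mrpl1 (uL1m), which forms the stalk at the tRNA exit site, had 696 and 695 in Cre/Rbm43, 926 and 921 in GFP/Rbm43 and 631 and 695 in GFP/control libraries and rose by 0.48 ± 0.07 (adjusted p = 3.29e-05). Mrpl30 (uL30m), the most abundant member per kilobase, had 1522 and 1468 in Cre/Rbm43, 1885 and 1839 in GFP/Rbm43 and 1466 and 1340.1 in GFP/control libraries and rose by 0.41 ± 0.06 (adjusted p = 3.28e-05). Mrpl34 (bL34m) had 388 and 406 in Cre/Rbm43, 518 and 508 in GFP/Rbm43 and 353 and 344 in GFP/control libraries and rose by 0.56 ± 0.08 (adjusted p = 3.59e-05). In Mrpl20, Mrpl1, Mrpl30 and Mrpl34 both GFP/Rbm43 libraries were the highest of the 6.

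By place in the large subunit, 4 of the 5 stalk proteins rose (Mrpl10, Mrpl12, Mrpl53 and Mrpl54; median 0.34). The fifth, Mrpl11, had 0.21 ± 0.08 (adjusted p = 0.0629). Of the 6 proteins of the central protuberance, which meets the small subunit and the tRNAs, 5 rose (Mrpl18, Mrpl38, Mrpl40, Mrpl46 and Mrpl55; median 0.40), and Mrpl48 had 0.14 ± 0.07 (adjusted p = 0.178). Around the polypeptide exit, 3 of 6 rose (Mrpl22, Mrpl45 and Mrpl47) and 1 fell (Mrpl24), with a median of 0.16. Mrpl45, which tethers the ribosome to the inner membrane, rose by 0.28 ± 0.06 (adjusted p = 0.00229). The other 2 at the exit, Mrpl17 and Mrpl23, had 0.03 ± 0.07 (adjusted p = 0.770) and -0.11 ± 0.10 (adjusted p = 0.504). Mrpl46 and Mrpl55 of the protuberance rose by 0.40 ± 0.10 and 0.48 ± 0.08 (adjusted p = 0.00472 and 3.30e-04). Mrpl55 had 338 and 357 in Cre/Rbm43, 471 and 457 in GFP/Rbm43 and 342 and 325 in GFP/control libraries, with both GFP/Rbm43 libraries above the other 4. This grouping by place was made after the members' values had been seen.

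Mrpl24 (uL24m, at the exit of the tunnel; chr 3, 87919506 to 87923672) went the other way. It had 870.2 and 839 in Cre/Rbm43, 849 and 828 in GFP/Rbm43 and 1063 and 1027 in GFP/control libraries. The 4 libraries with Rbm43 siRNA overlapped and lay below both GFP/control libraries, and Mrpl24 fell by 0.32 ± 0.06 on the log2 scale (adjusted p = 8.89e-04). Its exons overlap those of Rrnad1 on the other strand, and the strand setting of the counting is not given in the sources used here. Rrnad1 had 285 and 278 in Cre/Rbm43, 272 and 309 in GFP/Rbm43 and 252 and 270.2 in GFP/control libraries and did not pass the test (0.15 ± 0.10, adjusted p = 0.303). Mrpl23 (uL23m, which borders the same exit) had 252 and 274 in Cre/Rbm43, 272 and 292 in GFP/Rbm43 and 328 and 281 in GFP/control libraries, so that GFP/Rbm43 and GFP/control libraries overlapped. Mrpl33 and Mrpl52 also overlapped, with log2 fold changes of 0.00 ± 0.06 (adjusted p = 0.988) and -0.03 ± 0.09 (adjusted p = 0.844).

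In the small subunit, Mrps22 (mS22, mitochondria-specific, of which human mutations cause mitochondrial disease; chr 9, 98588730 to 98601660) had 716 and 762 in Cre/Rbm43, 987 and 974 in GFP/Rbm43 and 652 and 655 in GFP/control libraries. Its groups did not overlap, and it rose by 0.58 ± 0.07 (adjusted p = 2.01e-06). Mrps5 (uS5m), whose bacterial counterpart lies at the mRNA entrance, had 692 and 715 in Cre/Rbm43, 889 and 916 in GFP/Rbm43 and 629 and 609 in GFP/control libraries. It rose by 0.54 ± 0.07 (adjusted p = 5.33e-06), again with 3 groups that did not overlap. Mrps2 (uS2m) had 839 and 862 in Cre/Rbm43, 1111 and 1076 in GFP/Rbm43 and 852 and 801 in GFP/control libraries and rose by 0.40 ± 0.06 (adjusted p = 9.47e-05). Mrps23 (mS23) had 904 and 942 in Cre/Rbm43, 1184 and 1078 in GFP/Rbm43 and 896 and 761 in GFP/control libraries and rose by 0.45 ± 0.08 (adjusted p = 1.83e-04). In both, the GFP/Rbm43 libraries were the highest of the 6. Mrps16 (bS16m) had 609 and 613 in Cre/Rbm43, 791 and 805 in GFP/Rbm43 and 646 and 627 in GFP/control libraries and rose by 0.33 ± 0.07 (adjusted p = 0.00130). Mrps35 (mS35) rose by 0.46 ± 0.07 (adjusted p = 1.39e-04). Of the 8 proteins of the small subunit's head, 4 rose (Mrps7, Mrps10, Mrps14 and Mrps35; median 0.18).

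The lowest value in the small subunit was that of Mrps15 (uS15m), with 513 and 477 in Cre/Rbm43, 575 and 603 in GFP/Rbm43 and 612 and 627 in GFP/control libraries. Both GFP/Rbm43 libraries were below both GFP/control ones, but the difference of -0.07 ± 0.07 did not pass the test (adjusted p = 0.531). Mrps12 (uS12m), a protein of the decoding centre, had 299 and 328 in Cre/Rbm43, 324 and 314 in GFP/Rbm43 and 295 and 279 in GFP/control libraries and a difference of 0.15 ± 0.09 (adjusted p = 0.263). The GFP/Rbm43 libraries of Mrps12 were above both GFP/control libraries and overlapped Cre/Rbm43.

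A few Mrps symbols name proteins found elsewhere. Mrps18a (mL66) and Mrps30 (mL65) belong to the large subunit by structure, and Mrps36 is now known as a component of the 2-oxoglutarate dehydrogenase complex. Mrps18a had 575 and 587 in Cre/Rbm43, 622 and 729 in GFP/Rbm43 and 501 and 455 in GFP/control libraries and rose by 0.50 ± 0.08 with Rbm43 siRNA (adjusted p = 1.92e-04). Its groups did not overlap, and Cre/Rbm43 lay between the others. Mrps30 had 661 and 695 in Cre/Rbm43, 830.2 and 729 in GFP/Rbm43 and 657 and 676 in GFP/control libraries and rose by 0.22 ± 0.07 (adjusted p = 0.0355). Mrps36 had 512 and 505 in Cre/Rbm43, 719.5 and 669.7 in GFP/Rbm43 and 549 and 397 in GFP/control libraries and rose by 0.57 ± 0.11 (adjusted p = 5.40e-04). Its GFP/control libraries differed from each other by more than its Cre/Rbm43 libraries did, and Cre/Rbm43 lay within the GFP/control range. Mrps18a has a pair of relatives in the small subunit. Mrps18b (mS40) had 464 and 464 in Cre/Rbm43, 560.3 and 606 in GFP/Rbm43 and 494 and 463 in GFP/control libraries and rose by 0.29 ± 0.08 (adjusted p = 0.0110). Mrps18c (bS18m) had 702 and 632 in Cre/Rbm43, 807 and 758 in GFP/Rbm43 and 707 and 607 in GFP/control libraries and rose by 0.25 ± 0.08 (adjusted p = 0.0275). Both were highest in the GFP/Rbm43 libraries.

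**Figure D3:**
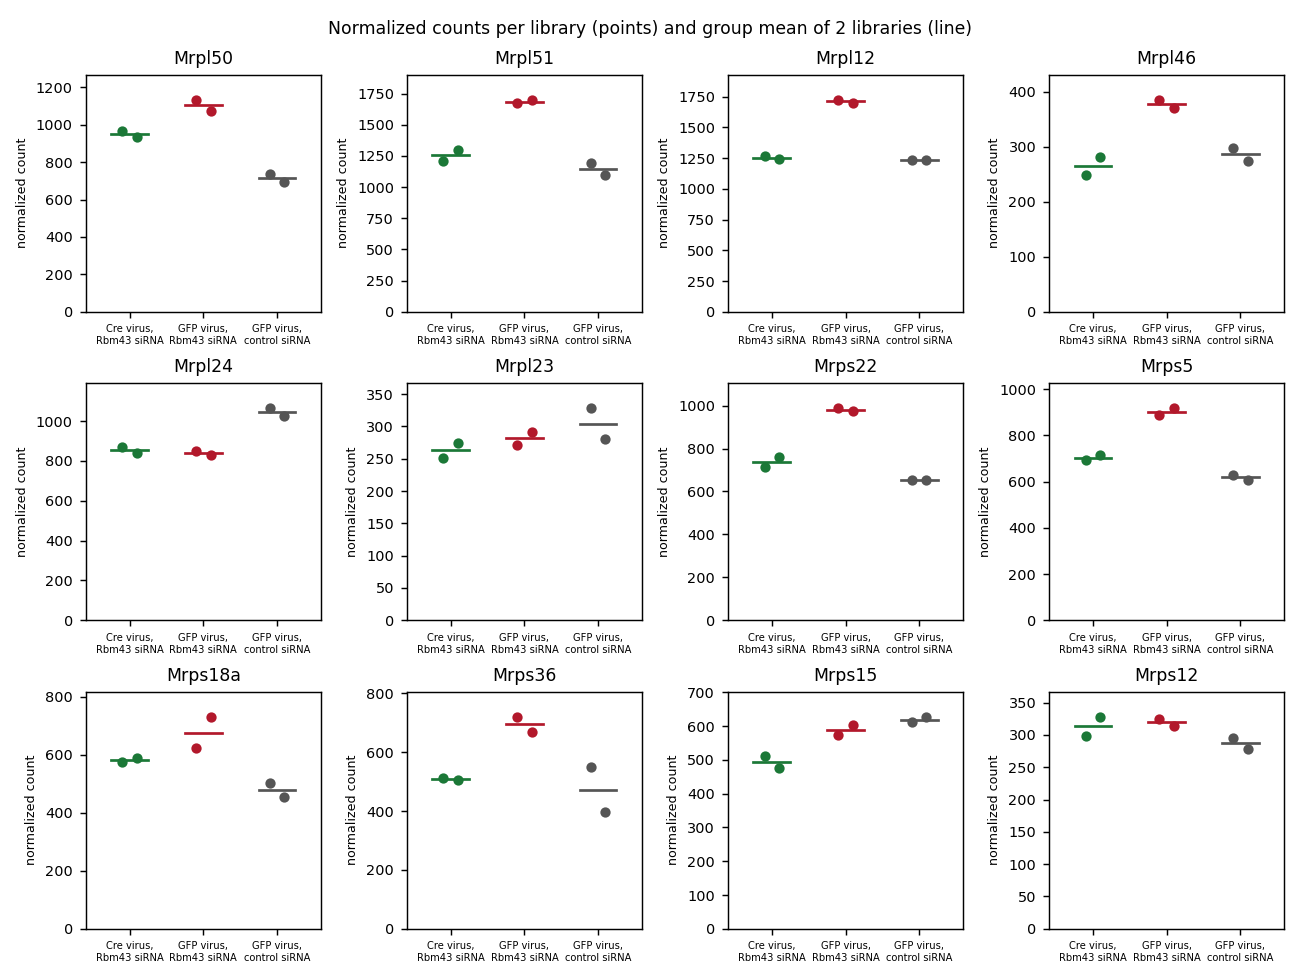
Normalized count (vertical axis, from 0) of 12 members in each of the 6 libraries; points are libraries and lines the mean of 2 libraries. Mrpl50, Mrpl51, Mrpl12, Mrps22 and Mrps5 are highest in both GFP/Rbm43 libraries, Mrpl24 is highest in GFP/control, and Mrps15 is lowest in Cre/Rbm43 (513 and 477).

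The 23 members that did not pass had log2 fold changes between -0.11 and 0.25, and the smallest called rise was 0.19. Replicates spread most in GFP/control, where the largest ratio between the 2 libraries of a member was 1.46 (Mrps21: 909 and 964 in Cre/Rbm43, 1118 and 1084 in GFP/Rbm43 and 949.8 and 650.0 in GFP/control libraries). It was 1.17 in Cre/Rbm43 (Mrpl14) and 1.21 in GFP/Rbm43 (Mrpl36). GFP/control replicate 2 was the lower one for 63 of 77 members. Fewer members were called with GFP/control replicate 2 left out and more with GFP/control replicate 1 left out. Without the mean-variance trend of the fit, 27 members passed (21 large and 6 small). Over all genes 877 rose and 427 fell without the trend, against 1914 and 1387 with it. Fewer small-subunit members were called with either GFP/Rbm43 replicate left out. Calls over all genes moved the same way when these libraries were left out. The exons of 32 members overlap another gene; among these 22 rose (median 0.28), and among the 45 others 31 rose (median 0.40). Mrpl46 and Mrps11, whose exons overlap on opposite strands on chr 7, both rose, by 0.40 ± 0.10 (adjusted p = 0.00472) and 0.35 ± 0.10 (adjusted p = 0.0139), and reads from either may have been counted for the other.

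The second comparison sets libraries labelled Cre against GFP virus, both with Rbm43 siRNA, and shares the GFP/Rbm43 libraries with the first. No member rose and 47 fell (61.0%), where 2.62% of all genes tested rose and 5.88% fell (limma; 8.5% in either direction, and 9.4% by edgeR). The members' median was -0.28 (interquartile range -0.36 to -0.21), against 0.00 over all genes. Of the 48 large-subunit members 30 fell (62.5%, median -0.28), and of the 29 small-subunit members 17 fell (58.6%, median -0.28). By structure, 30 of 50 and 16 of 26 fell (medians -0.27 and -0.29). Both Cre/Rbm43 libraries lay below both GFP/Rbm43 libraries for 72 of 77 members, against 27.5% of all genes. The single positive value was 0.03 ± 0.06 for Mrpl24 (adjusted p = 0.860). Marker lists moved here too: 8 of 12 adipocyte markers and 5 of 8 brown adipocyte markers fell, and 5 of 7 mural markers rose. Their part in the members' fall was not tested. Total-count scaling made the calls over all genes 565 higher and 734 lower, where 372 were higher and 836 lower with the deposited scaling.

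In the large subunit, Mrpl46 (mL46, central protuberance) fell furthest. It had 249 and 282 in Cre/Rbm43, 386 and 371 in GFP/Rbm43 and 299 and 275 in GFP/control libraries, and changed by -0.51 ± 0.10 on the log2 scale (adjusted p = 0.00174). Mrpl41 (mL41) had 361 and 361 in Cre/Rbm43, 496 and 514 in GFP/Rbm43 and 376 and 363 in GFP/control libraries, and changed by -0.48 ± 0.08 (adjusted p = 6.34e-04). In both genes Cre/Rbm43 and GFP/Rbm43 did not overlap, and the Cre/Rbm43 values reached down to or below those of GFP/control. Mrpl12 fell by 0.45 ± 0.06 (adjusted p = 3.51e-05), the smallest p of any member in this comparison. Mrpl51 changed by -0.43 ± 0.06 (adjusted p = 1.67e-04), Mrpl20 by -0.42 ± 0.06 (adjusted p = 3.04e-04) and Mrpl1 by -0.41 ± 0.07 (adjusted p = 6.55e-04). Mrpl39 and Mrpl30 changed by -0.34 ± 0.06 (adjusted p = 0.00125) and -0.32 ± 0.06 (adjusted p = 0.00154). Mrpl50, first among the rises, changed by -0.21 ± 0.06 (adjusted p = 0.0435). Of the stalk proteins 4 of 5 fell (median -0.34), of the central protuberance 4 of 6 (median -0.31) and of the exit proteins 3 of 6 (median -0.19).

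In the small subunit, Mrps22 changed by -0.41 ± 0.07 (adjusted p = 4.52e-04), Mrps16 by -0.39 ± 0.07 (adjusted p = 9.32e-04) and Mrps2 by -0.36 ± 0.06 (adjusted p = 9.65e-04). Mrps35 had 502 and 513 in Cre/Rbm43, 671 and 679 in GFP/Rbm43 and 513 and 472 in GFP/control libraries and changed by -0.41 ± 0.07 (adjusted p = 0.00127). Mrps28 (bS1m) had 278 and 289 in Cre/Rbm43, 382 and 385 in GFP/Rbm43 and 338 and 284 in GFP/control libraries and changed by -0.43 ± 0.10 (adjusted p = 0.00673). Its Cre/Rbm43 and GFP/Rbm43 libraries did not overlap. Mrps14 (uS14m) and Mrps7 (uS7m), proteins of the head, were lower in both Cre/Rbm43 libraries than in both GFP/Rbm43 libraries. Mrps14 had 829 and 805 in Cre/Rbm43, 1001 and 1018 in GFP/Rbm43 and 851 and 856 in GFP/control libraries, and Mrps7 had 975 and 953 in Cre/Rbm43, 1147 and 1195 in GFP/Rbm43 and 1044 and 1014 in GFP/control libraries. They changed by -0.31 ± 0.06 (adjusted p = 0.00326) and -0.28 ± 0.06 (adjusted p = 0.00503), and 6 of the 8 head proteins fell (median -0.29). Mrps5 changed by -0.36 ± 0.07 (adjusted p = 0.00153) and Mrps36 by -0.45 ± 0.11 (adjusted p = 0.0106). Mrps12 was nearest to 0, at -0.03 ± 0.09 (adjusted p = 0.899), with Cre/Rbm43 and GFP/Rbm43 libraries that overlapped.

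The number of falls rests on the fit and on single libraries. Without the mean-variance trend no gene of all 14211 was called, so no member was, though 48 members and 2355 of all genes had an unadjusted p under 0.05. On recovered reads, edgeR called 48 members and DESeq2 36. Leaving out Cre/Rbm43 replicate 1 or 2 gave 10 and 15 members called, where 267 and 286 of all genes fell. Leaving out GFP/Rbm43 replicate 1 or 2 gave 30 and 23 members, where 568 and 388 of all genes fell. Leaving out GFP/control replicate 1 or 2 gave 59 members each, where 1285 and 1295 of all genes fell, against 836 with all 6 libraries. A group left with 1 library is taken to vary like the other groups. The 30 members not called had log2 fold changes between -0.26 and 0.03.

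**Figure D4:**
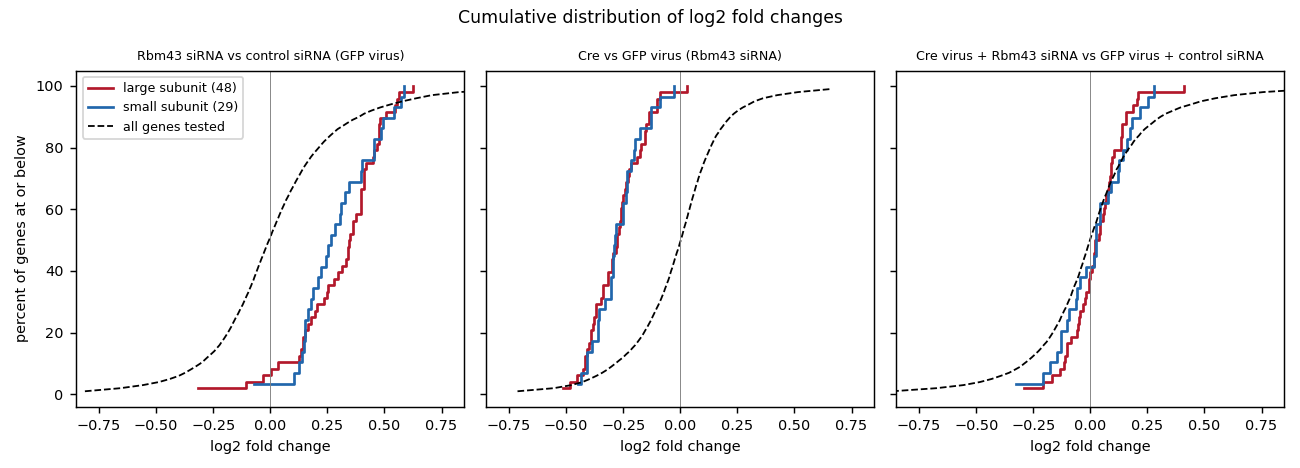
Percent of genes at or below each log2 fold change, for the 48 large-subunit genes, the 29 small-subunit genes and all genes tested (dashed), in the 3 comparisons. Both subunits lie to the right of all genes with Rbm43 siRNA (medians 0.35 and 0.27). They lie to the left for Cre against GFP virus (both -0.28). For Cre/Rbm43 against GFP/control their medians (0.03 and 0.02) are near that of all genes. There the interquartile range is narrower for the members (-0.06 to 0.10) than for all genes (-0.13 to 0.13).

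The third comparison sets Cre/Rbm43 against GFP/control, which differ in both virus and siRNA, and shares its libraries with the others. Of the 77 members 2 rose, 2 fell and 73 did not pass, with 8.47% of all genes tested rising and 6.28% falling (14.7% in either direction, and 14.9% by edgeR). The members' median was 0.02, against 0.00 over all genes. Both Cre/Rbm43 libraries were above both GFP/control ones for 24 members and below for 15, and 38 overlapped, where 27.4% of all genes were higher and 27.2% lower. Those that rose were Mrpl50 (0.41 ± 0.06, adjusted p = 1.61e-04) and Mrps18a (0.28 ± 0.08, adjusted p = 0.0278). Those that fell were Mrpl24 (-0.29 ± 0.06, adjusted p = 0.00321) and Mrps15 (-0.32 ± 0.07, adjusted p = 0.00508). By systematic name, Mrpl50 and Mrps18a are mitochondria-specific, though Mrps18a is a relative of Mrps18c (bS18m), and both that fell have bacterial counterparts. The median was 0.02 in each class. Log2 fold changes of the 73 others lay between -0.21 and 0.25. Among markers, 3 of 12 for adipocytes rose and 5 fell, and 5 of 8 for brown adipocytes rose and 2 fell. For mural cells 6 of 7 rose, and for endothelium 1 of 6 rose. For preadipocytes and fibroblasts 2 of 11 fell, and for macrophages 1 of 12 fell. How these marker changes bear on the members was not tested. More members passed with GFP/control replicate 1 left out and fewer with either Cre/Rbm43 replicate left out. Calls over all genes moved the same way. Without the mean-variance trend 1 member passed, where 242 of all genes rose and 191 fell, against 1203 and 893 with the trend.

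Other genes of mitochondrial translation were taken from 5 lists. The first list held 6 mitoribosomal proteins with other symbols (Dap3, Ptcd3, Aurkaip1, Chchd1, Gadd45gip1 and Ict1). Of these, 4 rose with Rbm43 siRNA (66.7%, median 0.25), against 13.5% of all genes tested. Only Ptcd3 fell with Cre (16.7%, list median -0.19), against 5.88% of all genes and 61.0% of the Mrpl and Mrps members. Ict1 (mL62), a peptidyl-tRNA hydrolase that frees stalled ribosomes, had 391 and 379 in Cre/Rbm43, 438 and 465 in GFP/Rbm43 and 299.6 and 252 in GFP/control libraries. Its groups did not overlap. It rose by 0.71 ± 0.09 with Rbm43 siRNA (adjusted p = 1.32e-05) and was 0.48 ± 0.09 higher in Cre/Rbm43 than in GFP/control (adjusted p = 0.00133). Its change with Cre, -0.23 ± 0.09, did not pass (adjusted p = 0.157). Ptcd3 changed by 0.26 ± 0.06 with Rbm43 siRNA (adjusted p = 0.00179) and by -0.28 ± 0.06 with Cre (adjusted p = 0.00275).

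A list of 17 genes held translation factors and genes that work beside them, such as Lrpprc, Slirp, Oxa1l, Pdf and Metap1d. Of these 17 genes, 9 rose with Rbm43 siRNA (52.9%, median 0.23) and 7 fell with Cre (41.2%, median -0.23). Over all genes tested the shares were 13.5% and 5.88%. Passing in neither were Mtif3, Mtrf1, Mtrf1l, Mrrf, Guf1, Mtfmt, Pdf and Metap1d. Gfm1, the elongation factor that moves the ribosome along, had 1366 and 1377 in Cre/Rbm43, 1643 and 1808 in GFP/Rbm43 and 1268 and 1216 in GFP/control libraries. It changed by 0.47 ± 0.06 with Rbm43 siRNA (adjusted p = 8.43e-06) and by -0.33 ± 0.06 with Cre (adjusted p = 0.00137). The initiation factor Mtif2 rose by 0.45 ± 0.06 (adjusted p = 3.00e-05), the recycling factor Gfm2 by 0.49 ± 0.07 (adjusted p = 3.16e-05) and Lrpprc, which stabilizes mitochondrial mRNAs, by 0.44 ± 0.06 (adjusted p = 4.00e-05). With Cre, the elongation factor Tufm changed by -0.34 ± 0.06 (adjusted p = 8.37e-04) and Taco1, a translational activator, by -0.42 ± 0.08 (adjusted p = 0.00172). Between Cre/Rbm43 and GFP/control, 3 genes of the list (Gfm2, Tsfm and Slirp) were higher.

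Assembly and tRNA charging genes were counted in the same way. Of 27 genes for mitoribosome assembly and rRNA modification, 3 rose with Rbm43 siRNA (Trmt2b, Nsun4 and Eral1; 11.1%, median 0.11) and 2 fell with Cre (Eral1 and Trmt2b; 7.41%, median -0.19), shares near the 13.5% and 5.88% of all genes. A further 3 were lower in Cre/Rbm43 than in GFP/control (Ngrn, Trub2 and Mpv17l2; 11.1%, against 6.28% of all genes). Eral1, a chaperone of the small-subunit rRNA, had 379.8 and 368 in Cre/Rbm43, 454 and 511 in GFP/Rbm43 and 408 and 387 in GFP/control libraries. Of 22 genes that charge mitochondrial tRNAs (synthetases and the amidotransferase subunits Qrsl1, Gatb and Gatc), 6 rose and 1, Hars2, fell with Rbm43 siRNA (27.3% and 4.55%, median 0.10), against 13.5% and 9.76% of all genes. Fars2 and Aars2 fell with Cre (9.09%, median -0.16), against 5.88% of all genes. Shares of these lists were set beside those of the ribosomal proteins as descriptions, and the difference was not tested.

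This ribosome translates the 13 mRNAs encoded by mitochondrial DNA. Of them 10 rose with Rbm43 siRNA (76.9%, median 0.26) and 11 fell with Cre (84.6%, median -0.32). Over all genes tested these shares were 13.5% and 5.88%. ND1, a subunit of complex I, had 91377 and 95382 in Cre/Rbm43, 120059.7 and 126328 in GFP/Rbm43 and 97317 and 89211 in GFP/control libraries. Its GFP/Rbm43 libraries stood above the other 4, with changes of 0.40 ± 0.06 with Rbm43 siRNA (adjusted p = 3.08e-05) and -0.40 ± 0.06 with Cre (adjusted p = 1.59e-04). Cytosolic ribosomal proteins did otherwise: of 84 tested, 4 rose and 44 fell with Rbm43 siRNA (4.76% and 52.4%, median -0.16). Of all genes tested 13.5% rose and 9.76% fell there. With Cre 2 of the 84 fell (2.38%, median 0.04), against 5.88% of all genes. Between Cre/Rbm43 and GFP/control 1 of them rose and 31 fell (1.19% and 36.9%, median -0.13), against 8.47% and 6.28% of all genes.

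**Figure D5:**
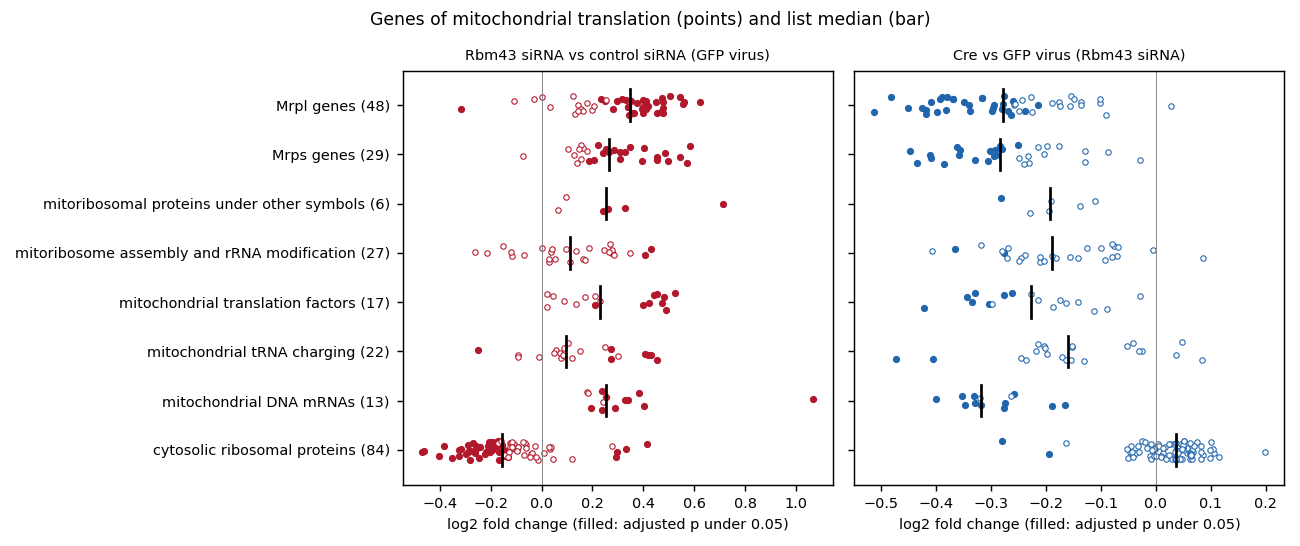
Log2 fold changes of single genes (points, filled where the test was passed) and list medians (bars) for Rbm43 siRNA against control siRNA (left) and Cre against GFP virus (right). Medians with Rbm43 siRNA are 0.35 and 0.27 for the Mrpl and Mrps genes and 0.23 for the list of translation factors and genes beside them. They are 0.26 for mitochondrial DNA mRNAs and -0.16 for cytosolic ribosomal proteins.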

How the data were processed

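Per the labels' protocols, poly(A)-selected stranded libraries were sequenced for 6 samples. The deposited table holds a signal per gene: counts that the authors divided by a size factor for each library. As tools, the submitters' processing notes name STAR 2.7.8, fastp 0.23.2 and DESeq2 2.11.40.7, and as build mm10. How reads were counted, on which annotation and with which strand setting is not given in the sources used here. Values in each library were whole multiples of 1 step (100% of them, to within 0.01 read), which recovers the reads. Run on them, edgeR gave 3263, 1336 and 2111 changed genes, in the order of the report.

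Sample titles gave groups and replicate numbers. The filter kept 14211 genes that reached 10 normalized counts in 2 or more libraries. They were fitted with limma 3.58.1 under R 4.3.3, as log2 of the normalized count plus 1, with a trend of variance on mean. The fit had a mean for every group, used the 6 libraries together and left 3 residual degrees of freedom. Benjamini-Hochberg adjustment ran over all genes tested, with a threshold of 0.05. Adding 1 shrinks the fold changes of weakly expressed genes. Values after ± beside log2 fold changes are this fit's standard errors (SE). The procedure was tested on simulated data. Alternatives were pseudocounts of 0.5 and 5, no filter or a minimum of 50, scaling by upper quartile or total, a replicate block, a fit of the compared groups alone, no trend, edgeR 4.0.16, DESeq2 1.42.0, subunits by structure and each library left out.

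Members and lists were chosen with earlier results of these data known. Named in each comparison are up to 8 members per subunit with the smallest p in each direction, those with the largest and smallest change, the highest and lowest per kilobase, symbols placed differently by structure, and up to 4 genes per related list. Members and genes outside this rule, such as those named by place, were named after their values were seen. Gene positions and lengths came from GENCODE M21 on the same build, and promoters from RefSeq on GRCm38.p6.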

Additional observations from a re-analysis of the deposited data

How the results depend on the processing

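With 2 libraries per group and 3 residual degrees of freedom, counts of members called depended on how the spread was estimated. Calls over all genes depended on it too. Without the mean-variance trend, 877 of all genes rose and 427 fell with Rbm43 siRNA, against 1914 and 1387 with it. A tally was made for the members named in each comparison by smallest p or by largest and smallest change. Under other settings, 647 values stayed on the same side of the threshold and 50 lost it. No sign changed where the main fit or the other setting passed the threshold. Signs of values that passed in neither were not compared. Genes of the related lists and members named by place were not in this tally. Small changes near 1.2-fold are at the limit of this design, and the causes of the differences below were not tested.

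With Rbm43 siRNA, 34 large-subunit and 20 small-subunit members were called. Without the mean-variance trend these were 21 and 6, and DESeq2 called 11 of the small subunit. Leaving out single libraries gave 30 to 38 large and 12 to 21 small. The small-subunit median was 0.24 with total scaling and 0.24 to 0.30 with single libraries left out, against 0.27. For Cre against GFP virus, 30 and 17 were called, 0 and 0 without the trend, 10 of the small subunit without the filter, and 8 to 36 and 2 to 23 with single libraries left out. The small-subunit median was -0.26 with total scaling, against -0.28. For Cre/Rbm43 against GFP/control, 2 and 2 were called. Without the trend these were 1 and 0, DESeq2 called 1 of the small subunit, no filter 1 and the assignment by structure 1. Leaving out libraries gave 1 to 9 large and 0 to 8 small, and a small-subunit median of -0.0210 (without GFP/control replicate 2, a reversed sign) to 0.0705, against 0.02.

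The replicate numbers did not pair the libraries: same-numbered libraries deviated from their group means with correlations of 0.0187, -0.0420 and -0.0373. With a replicate block, 35 large and 20 small members were called with Rbm43 siRNA, 32 and 18 for Cre against GFP virus, and 2 and 2 for Cre/Rbm43 against GFP/control.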
